A study of Mus musculus with 12 samples.

Results

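The 9 genes described here encode cytoplasmic scaffolds and transmembrane proteins of the tight junction and a pair of polarity proteins that position it: Tjp1 (ZO-1), Tjp3 (ZO-3), Cgn (cingulin), Ocln (occludin), Marveld2 (tricellulin), Marveld3, F11r (JAM-A), Pard3 and Pard6b. They were chosen by symbol, with earlier results of these data known. All 9 were among the 23420 genes of the count files and among the 12863 genes that passed the filter on low counts. The series holds 12 RNA libraries of mouse colonic epithelium. Wild-type crypts gave 3 of them, and confluent monolayers sampled on day 3, day 4 or day 5 gave 3 per day. Per the labels, crypts of a WT mouse aged 6-10 weeks were grown on collagen, and cells of those cultures were replated on scaffolds with graded cross-linking. Electrical resistance across the monolayers is labelled as 526 ± 56 ohm cm2 for day 3, 623 ± 15 for day 4 and 407 ± 53 for day 5, with the kind of error unnamed. The design compares the monolayers with the tissue they stand for, and no gene was altered in any group.

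Tight junctions seal the space between neighbouring epithelial cells. Claudins form the strands that set permeability, while occludin, tricellulin and MARVELD3 share a multi-pass membrane fold, the MARVEL domain, and sit in or along those strands. ZO-1 and ZO-3 bind claudins and occludin from the cytoplasm and link them to actin, cingulin joins the plaque to myosin, and JAM-A, an immunoglobulin-like adhesion protein, recruits PAR-3. PAR-3 and PAR-6 form the PAR polarity complex with atypical protein kinase C and Cdc42, which separates the apical from the lateral membrane.

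Gene counts summed to between 4518314 and 14290393 per library. Day 5 replicate 1 stood apart from the other monolayers, with 12293 genes detected against up to 15250, and lay at 93.2 on the second principal component against 26.3 and 19.8 for day 5 replicates 2 and 3. The epithelial markers Epcam, Cdh1, Krt8, Krt18, Krt19, Vil1 and Cdx2 were detected in both kinds of sample and summed to between 9001 and 10244 CPM (counts scaled to a common library size with TMM factors) in crypts and between 10697 and 14531 in monolayers. These markers moved both ways between crypts and monolayers (edgeR adjusted p under 0.05). Krt8, Krt18 and Krt19 were higher in monolayers, Epcam, Vil1 and Cdx2 were lower, and Cdh1 was not called. Marker lists of other cells were far lower. Leukocyte markers summed to 14 to 31.6 CPM in crypts and 1.21 to 8.35 in monolayers, fibroblast and smooth muscle markers to 8.02 to 74.8 and 0.561 to 5.04, and endothelial markers to 2.2 to 5.08 and 0.172 to 2.2. The lists of enteric neurons and glia and of platelets and red cells reached at most 3.4 CPM in crypts and 7.08 in monolayers. Cldn5, Dcn, Elavl4, Sox10, Hbb-b1 and Hba-a1 had no count in any monolayer library. Among the 9 genes, Marveld2, Marveld3, Pard3 and Pard6b had crypt libraries below the highest fibroblast sum, and the part of such cells in the changes was not tested. Reads in no gene made up 45.6 to 49% of reads counted in crypts and 38.7 to 42.8% in monolayers. The nuclear RNA Malat1 took 2.02 to 2.34% of gene counts in crypts, 5.65 to 5.99% at day 3, 7.4 to 8.05% at day 4 and 9.3 to 12.2% at day 5. Both measures separated crypts from monolayers, and their part in the changes below was not tested.

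Between monolayers (the mean of the 3 days) and crypts, 4 of the 9 genes rose, 2 fell and 3 were not called at an edgeR adjusted p under 0.05. Pard6b, Tjp1 and F11r rose most, Cgn rose less, and Marveld3 and Marveld2 fell. Across all genes tested 63.5% were called in this comparison, 30.7% higher and 32.8% lower, so the share of 6 in 9 is close to the background. The monolayer and crypt libraries did not overlap for 7 of the 9 genes, against 45.9% of all genes. The median log2 fold change was 0.17 over the 9 genes and -0.03 over all genes tested, and the median size regardless of sign was 0.45 against 0.65. In these bulk samples, fewer cells of a type and less RNA per cell cannot be told apart. The sources used here do not say if libraries of 1 group are separate animals or separate cultures, so each p-value speaks only to the spread among the libraries sequenced, which may be technical. The plot of levels by library shows each gene on its own scale.

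**Figure D1:**
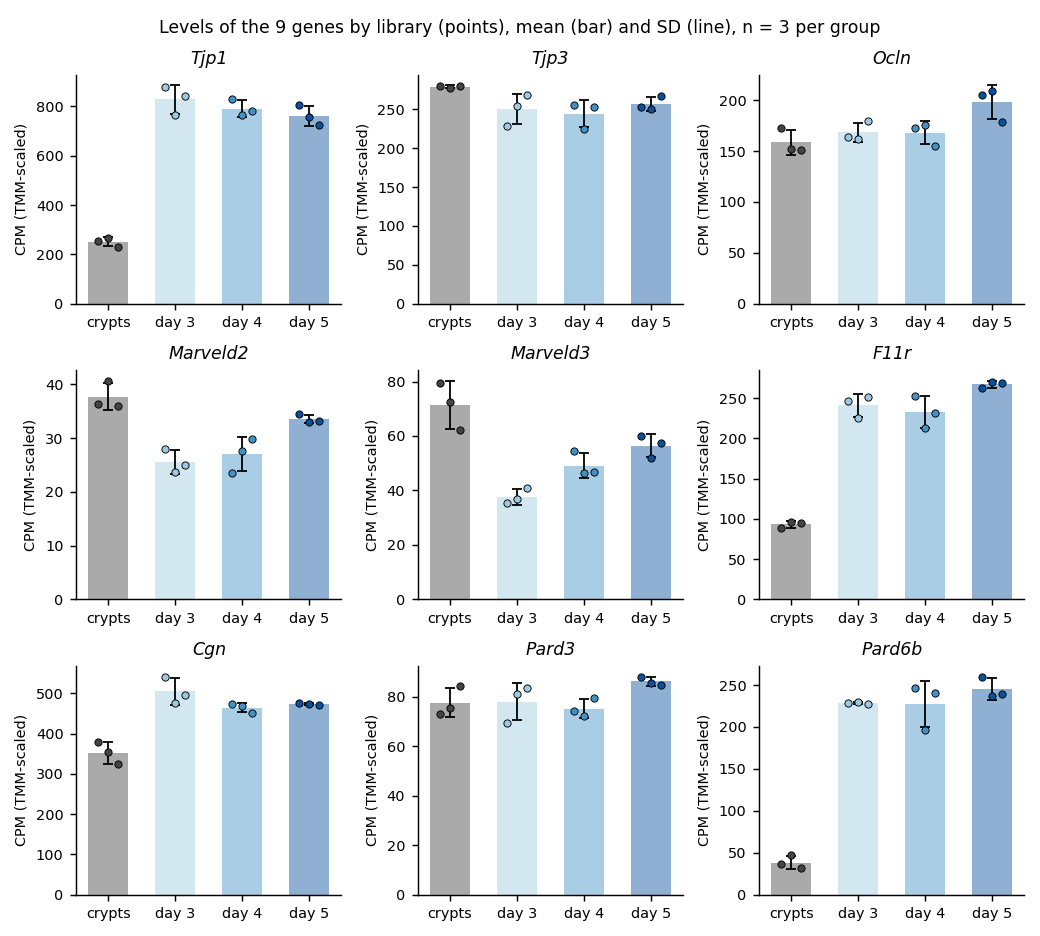
TMM-scaled CPM (vertical axes, each from 0) of the 9 genes in crypts and in monolayers at day 3, day 4 and day 5. Points are libraries, bars are means and lines are SD (n = 3). All 9 monolayer libraries lie above all 3 crypt libraries for Tjp1, F11r, Cgn and Pard6b, and below them for Marveld2, Marveld3 and Tjp3.

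The 250 bases before the start sites of the 4 genes that rose are shown because these genes moved in the same direction. They come from RefSeq promoters on GRCm38.p6, in which 8 of the 9 genes (all but Marveld3) had an entry, with 12 start sites in all. Each is written 5′ to 3′ on the gene's strand, and capitals mark the GC box GGGCGG or its reverse complement CCGCCC, bound by Sp and Krüppel-like factors. The Tjp1 sequence lies at chr7:65371245-65371494 on the minus strand, F11r at chr1:171437311-171437560 on the plus strand, Pard6b at chr2:168080754-168081003 on the plus strand and Cgn at chr3:94786483-94786732 on the minus strand. In GENCODE the Tjp1 gene extends upstream to position 65527781, so the Tjp1 window lies inside the gene. Start sites of Tjp1 further upstream were not examined.
Tjp1: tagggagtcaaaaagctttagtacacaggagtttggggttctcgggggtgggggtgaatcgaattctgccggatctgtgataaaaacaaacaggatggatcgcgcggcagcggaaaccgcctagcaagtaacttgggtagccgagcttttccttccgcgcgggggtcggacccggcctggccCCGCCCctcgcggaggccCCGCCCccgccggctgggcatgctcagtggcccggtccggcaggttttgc
F11r: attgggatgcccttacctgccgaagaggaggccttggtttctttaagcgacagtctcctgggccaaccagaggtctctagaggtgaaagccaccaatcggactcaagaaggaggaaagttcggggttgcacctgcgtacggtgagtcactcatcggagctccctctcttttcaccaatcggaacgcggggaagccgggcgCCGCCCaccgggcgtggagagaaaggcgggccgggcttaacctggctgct
Pard6b: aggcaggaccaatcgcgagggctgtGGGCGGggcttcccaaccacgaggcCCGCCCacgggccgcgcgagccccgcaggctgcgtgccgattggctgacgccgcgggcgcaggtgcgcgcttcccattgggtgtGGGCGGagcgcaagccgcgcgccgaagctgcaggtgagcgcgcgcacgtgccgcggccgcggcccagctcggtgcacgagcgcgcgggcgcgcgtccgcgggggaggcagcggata
Cgn: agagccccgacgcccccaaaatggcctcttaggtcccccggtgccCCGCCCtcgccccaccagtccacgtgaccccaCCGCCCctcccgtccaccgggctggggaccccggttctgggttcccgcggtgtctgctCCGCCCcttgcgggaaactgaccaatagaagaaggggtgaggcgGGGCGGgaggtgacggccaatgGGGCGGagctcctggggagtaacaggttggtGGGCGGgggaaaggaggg
The windows of the 2 start sites of Marveld2 overlap, as do those of Ocln, so that 1 match can count for both. The GC box was found in 9 of the 12 promoters, which belong to 7 of the 8 genes, against 32.7% of the 32851 promoters of the same length, and the Cgn sequence held 6 copies, Pard6b 3, Tjp1 2 and F11r 1. These 4 sequences also had a GC content of 60 to 77.6%, against a median of 52.4% over all promoters. The E-box CAGGTG (or CACCTG), a motif of Snail and ZEB repressors, was in 6 of the 12 against 17.2% of all promoters, and the hypoxia response core ACGTG (or CACGT) in 4 of the 12 against 16.6%. The TEAD motif GGAATG (or CATTCC) was in 0 of the 12 against 12.6%, and the grainyhead motif AACCGGTT in 0 against 0.116%. A match is not a site of binding, and its dependence on base composition was not tested. GC boxes also stood in promoters of Ocln, Pard3 and Marveld2, which did not rise over the 3 days.

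Among the scaffolds, Tjp1 rose while its paralogue Tjp3 did not. Tjp1, whose product ZO-1 carries PDZ domains that hold claudins and JAM-A at the junction, was at 256, 268 and 231 CPM in crypts replicates 1 to 3. The day 3 libraries held 877, 766 and 842 CPM, the day 4 libraries 828, 764 and 779.7, and the day 5 libraries 805, 758 and 724. The lowest monolayer library was therefore well above the highest crypt library. The change was 3.15-fold (log2 fold change 1.66 ± 0.08 SE, edgeR adjusted p = 9.42e-13), and it was 1.72, 1.65 and 1.6 at day 3, day 4 and day 5.

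Tjp3, which encodes ZO-3, a scaffold largely confined to epithelia, was at 279.8, 278 and 281 CPM in crypts. Monolayers ranged from 225 to 268 CPM with a median of 254, all below the crypt libraries. The change of -0.16 ± 0.07 on the log2 scale missed the threshold (edgeR adjusted p = 0.0521). It was called with DESeq2 size factors (-0.19, adjusted p = 0.0209), with library totals (-0.34, adjusted p = 0.000432), by the DESeq2 Wald test (-0.19, adjusted p = 0.00971) and without day 3 replicate 3 (-0.17, adjusted p = 0.0488). Exons of Tjp3 overlap those of Apba3 on the other strand in GENCODE, and since the strand setting of the counting is not given, reads there cannot be assigned. Apba3 had 70 to 225 counts per library against 1257 to 3545 for Tjp3.

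Cgn, encoding cingulin, was at 379, 354 and 324 CPM in crypts and between 452 and 542 in monolayers, with a median of 475. The groups did not overlap, and the gene rose by 0.45 ± 0.07 on the log2 scale (1.36-fold, edgeR adjusted p = 1.21e-05). The 3 day 5 libraries lay close together, at 477, 475 and 472 CPM.

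Within single libraries, where the ratio of a pair of genes does not depend on library scaling, the balance of the plaque scaffolds differed between monolayers and crypts. The log2 ratio of Tjp3 to Tjp1 counts was 0.15 ± 0.12 in crypts (SD, n = 3), from 0.05 to 0.28, and -1.66 ± 0.14 in monolayers (n = 9), from -1.94 to -1.43. The 2 genes were thus counted about equally in crypts, and Tjp3 at 0.316 of Tjp1 in monolayers. These count ratios are not corrected for gene length. Per kb of exon, Tjp3 was at 88.9 CPM against 35.4 for Tjp1 in crypts, and at 79.8 against 112 in monolayers. The difference of -1.82 had a 2-sided exact permutation p of 0.00909, adjusted over 6 ratios to 0.00909. This is the smallest p that 3 against 9 libraries allow. For all 6 ratios the 9 monolayer libraries of 3 days were taken as 1 group. The SD and the permutation therefore do not separate differences between days from those between libraries. Cgn to Tjp1 went from 0.49 ± 0.08 to -0.72 ± 0.06, a difference of -1.21 (same exact permutation p, 0.00909), so Cgn rose less than Tjp1.

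**Figure D2:**
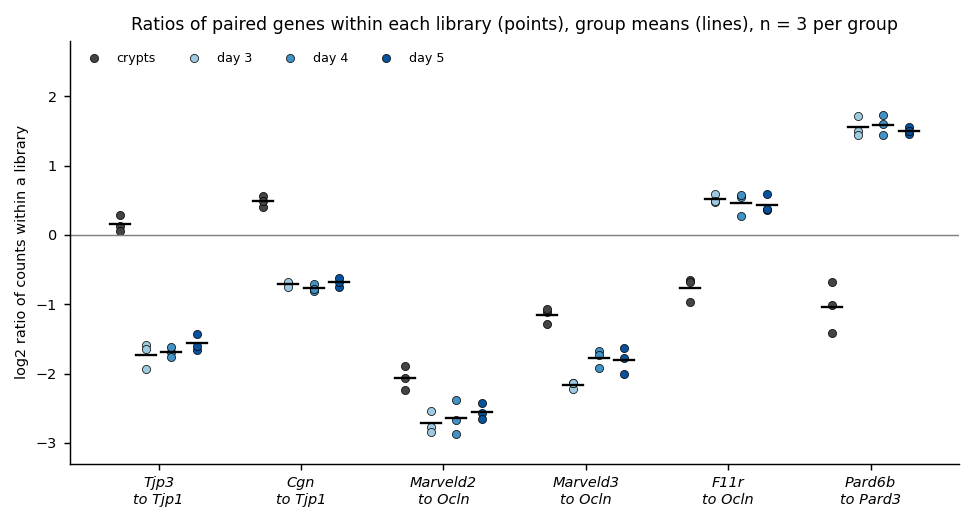
Log2 ratio of the counts of 2 genes within each library (vertical axis) for 6 pairs of genes. Points are libraries, coloured by group, and lines are group means (n = 3). In each of the 6 pairs the 9 monolayer libraries lie on one side of the 3 crypt libraries. For Tjp3 to Tjp1 they range from -1.94 to -1.43 against 0.05 to 0.28. Tjp1 and Ocln recur among the pairs, so the 6 are not independent. The share of all gene pairs separated in this way was not computed. For single genes, monolayer and crypt libraries did not overlap for 45.9% of those tested.

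The MARVEL proteins did not move with Tjp1. Ocln, encoding occludin, which binds ZO-1 and marks the bicellular junction, was at 172, 152 and 151 CPM in crypts. Monolayers held 164, 162 and 179 CPM on day 3, then 173, 176 and 155 on day 4, then 206, 209 and 179 on day 5. Day 3 and day 4 overlapped the crypts, and day 5 lay above them. Over the 3 days the change of 0.17 ± 0.08 on the log2 scale was not called (edgeR adjusted p = 0.0709). It was called without crypts replicate 1 (0.23, adjusted p = 0.0245), day 4 replicate 3 (0.19, adjusted p = 0.0469) or day 5 replicate 3 (0.19, adjusted p = 0.0358), and was -0.02 with library totals. At day 5 alone Ocln rose by 0.32 ± 0.09 (edgeR adjusted p = 0.00699), but by 0.12 (adjusted p = 0.291) with library totals.

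Marveld2 encodes tricellulin, the MARVEL protein of tricellular contacts. Crypts held 36.4, 40.6 and 36 CPM, while the day 3 libraries held 28, 23.7 and 24.9, the day 4 libraries 23.6, 27.7 and 29.8, and the day 5 libraries 34.5, 33.1 and 33.3. The highest monolayer library lay just under the lowest crypt library. The gene fell by 0.41 ± 0.12 on the log2 scale (edgeR adjusted p = 0.00566), with calls at day 3 (-0.56, adjusted p = 0.00292) and day 4 (-0.48, adjusted p = 0.00866). The day 4 call was lost without day 4 replicate 1 (-0.39, adjusted p = 0.0553). At day 5 the change of -0.17 was not called (adjusted p = 0.343), though it was with library totals (-0.37, adjusted p = 0.0445).

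Marveld3, which encodes a MARVEL protein of bicellular and tricellular contacts known as a brake on MEKK1-JNK signalling, fell most among the 9. Crypts held 79.6, 72.5 and 62.1 CPM, day 3 monolayers 35.2, 36.9 and 40.7, day 4 monolayers 54.4, 46.2 and 46.6, and day 5 monolayers 60, 51.9 and 57.5. Every monolayer library was below every crypt library, and every day 3 library below every day 4 and day 5 library. The change over the 3 days was -0.6 ± 0.1 on the log2 scale (edgeR adjusted p = 4.62e-05). It was -0.92 ± 0.13 at day 3, -0.54 ± 0.13 at day 4 and -0.34 ± 0.13 at day 5 (edgeR adjusted p = 6.23e-06, 0.0015 and 0.0312). The day 5 call was lost without crypts replicate 1 (adjusted p = 0.123) or 2 (0.0679), without day 5 replicate 2 (0.13) or 3 (0.06), with no filter (0.0595) and with only the groups compared in the fit (0.0678).

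Relative to occludin, both other MARVEL genes were lower in monolayers. The within-library log2 ratio of Marveld2 to Ocln was -2.07 ± 0.17 in crypts and -2.64 ± 0.17 in monolayers, and that of Marveld3 to Ocln -1.15 ± 0.12 and -1.91 ± 0.22. The differences of -0.57 and -0.76 each had a 2-sided exact permutation p of 0.00909 (adjusted 0.00909).

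F11r, encoding the adhesion receptor JAM-A, rose at all 3 days. JAM-A is also found on endothelium, leukocytes and platelets. Crypts held 88.2, 96.5 and 94.4 CPM, day 3 monolayers 246, 225 and 252, day 4 monolayers 252, 213 and 232, and day 5 monolayers 262, 270.1 and 269. The groups were far apart: the change was 2.64-fold (1.4 ± 0.08 on the log2 scale, edgeR adjusted p = 1.51e-11). Against occludin within libraries, F11r went from a log2 ratio of -0.77 ± 0.17 to 0.47 ± 0.11, a difference of 1.24 (2-sided exact permutation p = 0.00909, adjusted 0.00909). Of the 8 leukocyte markers 4 were tested, of which 3 fell and 1 rose: Ptprc was at 16.9 ± 6.47 CPM in crypts and 0.232 ± 0.235 in monolayers, while Csf1r, a receptor gene of macrophages, rose by 2.73 ± 0.81 (edgeR adjusted p = 0.00689) at 2.27 against 0.287 CPM and is named after its values were seen. Of the 6 endothelial markers 2 were tested, and Pecam1 fell (1.4 ± 0.216 CPM in crypts and 0.0475 ± 0.0929 in monolayers) while Esam was not called. Of the 5 platelet and red cell markers 2 were tested: the integrin gene Itga2b, at 3.55 ± 1.67 CPM in monolayers and 1.42 ± 0.95 in crypts, rose by 1.36 ± 0.55 (edgeR adjusted p = 0.0377), and Pf4 was not called (-0.51, adjusted p = 0.653). The part of such cells in the F11r change was not tested.

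The 2 polarity genes behaved differently. Pard6b, an adaptor that brings Cdc42 to atypical protein kinase C, was at 36.4, 47.1 and 31.5 CPM in crypts. The day 3 libraries held 228, 229 and 227 CPM, day 4 held 247, 196 and 240.1, and day 5 held 260.1, 236 and 239. It rose 6.1-fold (2.61 ± 0.12 on the log2 scale, edgeR adjusted p = 7.28e-13), the largest change among the 9 genes. Crypts replicate 2 was the highest crypt library, and without it the change was 2.8.

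Pard3, which encodes the scaffold that binds JAM-A and PAR-6, was at 73.2, 75.7 and 84.3 CPM in crypts and between 69.6 and 88.3 in monolayers. The groups overlapped and the change of 0.03 ± 0.09 was not called (edgeR adjusted p = 0.763). Its sign changed with library totals (-0.15), DESeq2 size factors (-0.0013), the DESeq2 Wald test (-0.0029) and without crypts replicate 1 (-0.0031). The log2 ratio of Pard6b to Pard3 was -1.04 ± 0.37 in crypts and 1.55 ± 0.11 in monolayers, a difference of 2.59 (2-sided exact permutation p = 0.00909, adjusted 0.00909). Pard6b thus went from about 0.487 times the Pard3 count to 2.93 times, without correction for gene length. Per kb of exon, Pard6b was at 11.3 CPM against 8.89 for Pard3 in crypts, and at 68.8 against 9.13 in monolayers. The order in crypts depended on the length used. Per kb of the longest transcript, Pard6b was at 11.3 CPM against 13.4 for Pard3 in crypts, and at 68.8 against 13.7 in monolayers.

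**Figure D3:**
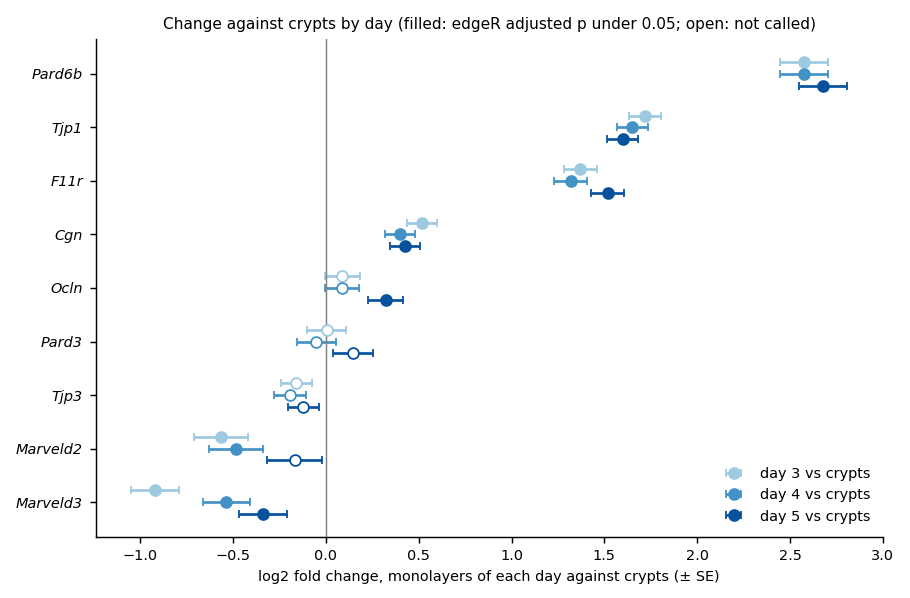
Log2 fold change of each gene at day 3, day 4 and day 5 against crypts (horizontal axis), with lines for the SE of the edgeR fit. Filled points have an edgeR adjusted p under 0.05. The 3 days lie close together for Pard6b, Tjp1, F11r and Cgn, while Marveld3 moves from -0.92 at day 3 to -0.34 at day 5.

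Against crypts, 6 of the 9 genes were called at each day, with 56.3, 57.1 and 57.3% of all genes called at day 3, day 4 and day 5. At day 3 these were 4 higher and 2 lower (28.4 and 27.9% of all genes), at day 4 again 4 and 2 (28.7 and 28.4%), and at day 5 they were 5 and 1 (28.4 and 28.9%), with Ocln called and Marveld2 not. Libraries did not overlap the crypts for 7, 7 and 9 of the 9 genes, against 64.4, 62.3 and 59.2% of all genes. These 3 comparisons share the crypt libraries. Between days, edgeR called 0 of the 9 genes for day 4 against day 3 (2.77% of all genes) and 0 for day 5 against day 4 (7.56%). At an unadjusted p under 0.05 these counts were 1 and 3 (13.6 and 21.8% of all genes), and the DESeq2 Wald test gave 0 in both. For day 5 against day 3, 1 gene was called, and it was higher (20.4% of all genes called, 9.9% higher). Libraries did not overlap for 2 of the 9 genes between day 3 and day 4, 4 between day 4 and day 5 and 5 between day 3 and day 5, against 27.1, 27.1 and 40.8% of all genes.

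That gene was Marveld3, higher at day 5 than at day 3 by 0.58 ± 0.13 on the log2 scale (56.5 ± 4.17 against 37.6 ± 2.84 CPM, edgeR adjusted p = 0.00311). In the order crypts, day 5, day 4, day 3, neighbouring days did not differ by the test (0.2, adjusted p = 0.414, and 0.38, adjusted p = 0.139), although the second step was called when day 3 and day 4 were fitted alone (0.38, adjusted p = 0.0379). Leaving out 1 library kept the difference between day 5 and day 3 between 0.53 and 0.64 (highest adjusted p = 0.0221). Some epithelial markers also moved between these days: Epcam was higher at day 5 than at day 3 by 0.98 on the log2 scale. Krt8, Krt18 and Krt19 were lower (-0.56, -0.59 and -0.91), and Cdh1, Vil1 and Cdx2 were not called. The part of these markers in the Marveld3 change was not tested.

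The other genes were ordered as follows. Marveld2 also stood lowest at day 3 (25.5 ± 2.26 CPM) and highest among the days at day 5 (33.6 ± 0.752), but the difference of 0.4 ± 0.15 was not called by edgeR (adjusted p = 0.0658), while the DESeq2 Wald test called it (0.4, adjusted p = 0.0499). Ocln was at 168 ± 9.57, 168 ± 11.1 and 198 ± 16.6 CPM at day 3, day 4 and day 5, and day 5 was not called against day 3 (0.23, adjusted p = 0.0865) except without day 5 replicate 3 (0.3, adjusted p = 0.0468). Tjp1 stood highest at day 3 (828 ± 56.9 CPM) and lowest among the days at day 5 (762 ± 40.7), a difference of -0.12 that was not called (adjusted p = 0.343). F11r, Cgn, Pard3, Pard6b and Tjp3 were also not called between any pair of days. None of the 9 was highest or lowest at day 4, the day of highest resistance, by a test that passed the threshold. With 3 days, no relation to the resistance was tested.

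Levels can be compared between genes only per length, and here CPM was divided by the kilobases of exon in GENCODE vM21, which may differ from the annotation the authors counted on. In crypts Tjp3 stood first with 88.9 ± 0.452 CPM per kb and Cgn second with 58.6 ± 4.54. Ocln, F11r and Tjp1 followed at 37.5 ± 2.82, 36.9 ± 1.71 and 35.4 ± 2.62, which did not differ beyond their spread. In monolayers Tjp1 stood first with 112 ± 6.79 CPM per kb, followed by F11r with 98 ± 7.9, Cgn with 80 ± 4.23 and Tjp3 with 79.8 ± 4.75. Tjp1 thus went from the fifth place to the first. With the longest transcript in place of all exons, Tjp1 kept both places. In crypts, however, Pard3 went from place 9 to 7 and Pard6b from 7 to 9. Pard6b was at 11.3 ± 2.36 CPM per kb in crypts, close to Marveld2 at 11.1 ± 0.755, and at 68.8 ± 5.13 in monolayers. Marveld2 and Pard3 were lowest in monolayers, at 8.49 ± 1.24 and 9.13 ± 0.752.

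**Figure D4:**
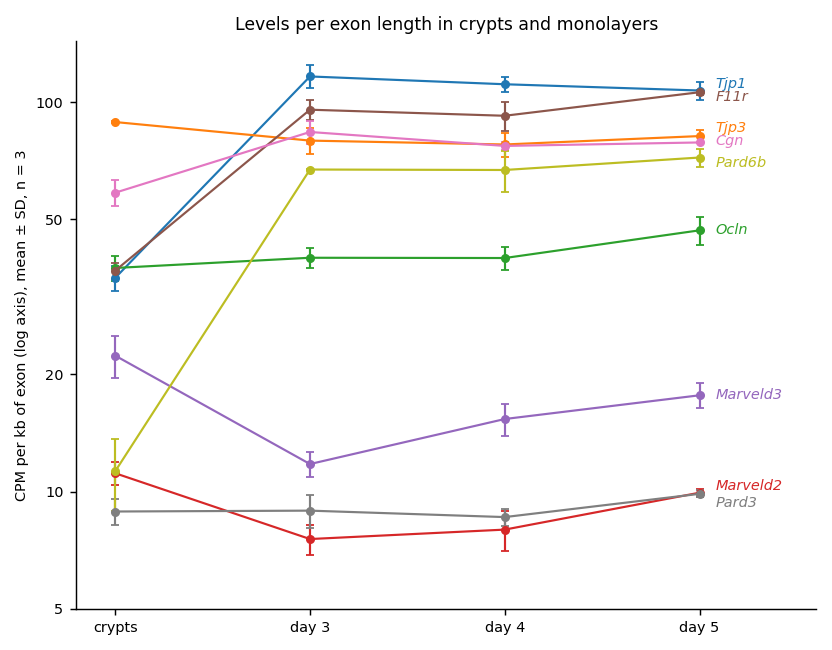
CPM per kb of exon (vertical log axis) of the 9 genes in crypts and at day 3, day 4 and day 5, as means with SD (n = 3). Tjp1, F11r and Pard6b climb between crypts and day 3, and Tjp1 goes from 35.4 in crypts to 112 over the monolayers, while Tjp3 goes from 88.9 to 79.8.

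Between libraries of a group, the median coefficient of variation of the 9 genes was below that of all genes. It was 7.53, 6.88, 7.11 and 3.6% for crypts and the day 3, day 4 and day 5 monolayers, against 13.8, 7.87, 9.25 and 12.2% over the 8795 tested genes with a mean of at least 10 CPM. This background was not matched to the levels of the 9 genes, and the part of level in the difference was not tested. Pard6b in crypts had the highest value, 20.9%. Day 5 replicate 1, the library that stood apart, held 805 CPM of Tjp1 against 758 and 724 in the other day 5 libraries, and 60 of Marveld3 against 51.9 and 57.5.

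Genes related to these 9, by a role at the junction, in cell polarity or by the MARVEL domain, were counted in 5 lists. Of these, 73 genes were tested: 41 rose and 14 fell between monolayers and crypts (75.3% called, against 63.5% of all genes). Over all genes tested, 30.7% were higher and 32.8% lower. The lists were chosen with earlier results of these data known, so these shares do not test whether related genes changed more often than others. The scaffold and adaptor relatives had 11 of 12 tested members higher, 0 lower and a median of 1.18. Amotl2, an angiomotin that binds YAP and junctional scaffolds, was at 277 ± 26 CPM against 10.6 ± 0.974 (4.69 ± 0.12, edgeR adjusted p = 5.41e-16). Magi2, a PDZ scaffold, was at 3.83 ± 1.35 against 0.297 ± 0.146 CPM (3.61 ± 0.57, edgeR adjusted p = 2.08e-05), from 7 counts in all crypts.

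Other MARVEL-domain genes moved both ways, with 3 of 13 higher, 6 lower and a median of -0.6. Cmtm8, a chemokine-like factor gene, fell by 3.49 ± 0.29 on the log2 scale (1.85 ± 1 against 19.8 ± 2.84 CPM) and Pllp, encoding plasmolipin, by 3.06 ± 0.22 (3.75 ± 1.1 against 30.8 ± 2.98). Syngr1, encoding synaptogyrin, rose by 3 ± 0.31 (17.7 ± 3.06 against 2.04 ± 1.4 CPM, edgeR adjusted p = 8.64e-08), or by 3.86 without crypts replicate 3. Mal, which encodes a protein of apical transport, rose by 1.59 ± 0.19 (224 ± 22.6 against 73.8 ± 38.4 CPM, edgeR adjusted p = 5.77e-07).

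Angulins, which place tricellulin at tricellular contacts, and JAM-like adhesion proteins had 6 of 8 tested members higher and 1 lower, with a median of 0.65. Clmp, an adhesion gene of the CAR family, rose by 1.63 ± 0.25 (12.6 ± 1.71 against 4.07 ± 1.23 CPM) and Igsf5, encoding JAM4, fell by 0.76 ± 0.1 (57.3 ± 5.63 against 96.6 ± 13.2 CPM). Jam2 was called higher (2.42 ± 0.97, edgeR adjusted p = 0.0363) at 1.79 ± 1.34 against 0.264 ± 0.261 CPM, with overlapping libraries. The Jam2 call was lost without crypts replicate 1 (2.02, adjusted p = 0.109) or 3 (0.0996), day 3 replicate 1 (0.0533), 2 (0.0618) or 3 (0.0517), day 4 replicate 1 (0.0514) or 2 (0.0699) or day 5 replicate 3 (0.0915). It was also lost with library totals (0.0504) and with the replicate block (0.0507), and the Jam2 change was 3.11 without crypts replicate 2.

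Genes of the polarity complexes had 5 of 16 tested members higher, 3 lower and 8 not called, with a median of 0.12. The share called was 50%, against 63.5% of all genes (30.7% higher and 32.8% lower). Dlg1 and Llgl1, of the Scribble complex that marks the basolateral side, rose by 1.05 ± 0.07 (246 ± 42.9 against 117 ± 4.9 CPM) and 1.04 ± 0.15 (33.7 ± 4.42 against 16.6 ± 2.46). Prkcz, encoding an atypical protein kinase C, fell by 0.86 ± 0.13 (23.3 ± 3.43 against 42.2 ± 2.58 CPM), and Tiam1, an exchange factor for Rac that binds PAR-3, by 0.7 ± 0.14 (19.6 ± 5.28 against 31 ± 2.79).

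Actomyosin and trafficking genes of the junction had 16 of 24 higher and 4 lower, with a median of 0.52. Myh10, a non-muscle myosin heavy chain gene, rose by 2.23 ± 0.4 (5.69 ± 2.1 against 1.15 ± 0.386 CPM) and Myl12a, a myosin light chain gene, by 1.65 ± 0.09 (288 ± 22.5 against 91.5 ± 6.89). Mylk, encoding the myosin light chain kinase known for opening tight junctions, fell by 1.68 ± 0.13 (25.9 ± 11.2 against 76.5 ± 21.4 CPM, edgeR adjusted p = 2.98e-09), and Dnmbp, encoding the Cdc42 exchange factor Tuba, by 0.74 ± 0.08 (92.7 ± 12.3 against 154 ± 12.4).

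**Figure D5:**
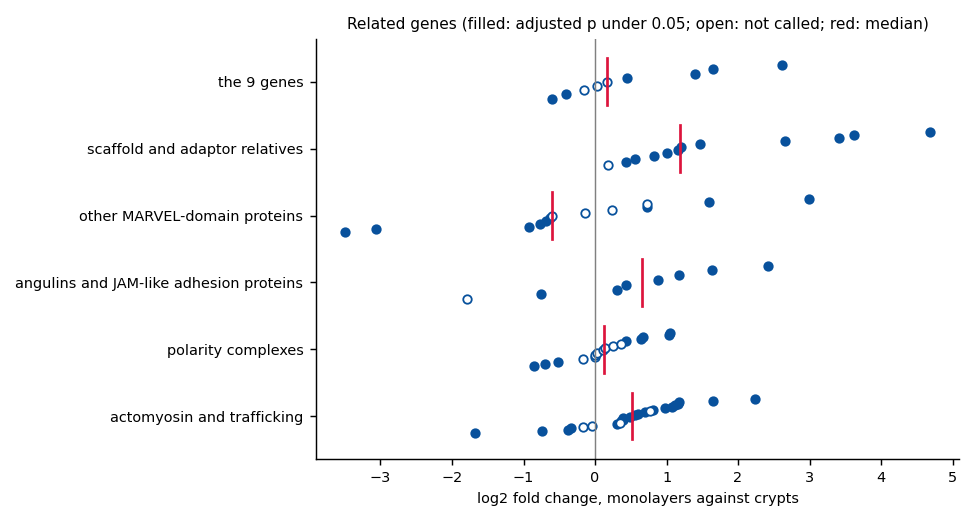
Log2 fold change between monolayers and crypts (horizontal axis) of the 9 genes and of the tested genes of 5 related lists, 1 point per gene. Filled points have an edgeR adjusted p under 0.05 and red lines are medians. The scaffold and adaptor relatives lie to the right of 0 with a median of 1.18, while the 9 genes spread from -0.6 to 2.61.

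The genes nearest to a member were those with the smallest root mean square difference in centred log2 CPM over the 12 libraries, among 8481 other genes with a mean of at least 10 CPM, leaving out predicted, clone-named and small RNA symbols. For Tjp1 they were Sik1 (0.103), Litaf (0.105) and Mdm2 (0.106), and for Cgn Mapre1 (0.0592), Zc3h15 (0.0755) and Arhgap21 (0.0777). For Ocln they were Ankrd17 (0.0624), Wdr33 (0.0632) and Elk4 (0.0758), and for Tjp3 Plekhh1 (0.0747), Ick (0.0762) and Hip1r (0.0769). These differences are on the log2 scale, and the distance rests mostly on the step between crypts and monolayers.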

How the data were processed

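Total RNA of 12 libraries of mouse colonic crypts and monolayers was measured. The values are the counts deposited by the authors, whole numbers of reads per gene symbol in 1 file per library, not normalized. The submitters' processing notes name the tools CASAVA 1.9, TopHat2 and HTSeq and the builds mm9 and mm10, without the role of either build. Annotation and strand setting: not given in the sources used here. Promoter coordinates are those of RefSeq on GRCm38.p6 and gene lengths are from GENCODE vM21.

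The 5 summary lines, which name no gene, stayed out of library sizes and tests: reads in no gene were 38.7 to 49% of reads counted, reads without a unique alignment 14.2 to 19.2%, and reads overlapping several genes 0.154 to 0.207%. Tests used edgeR 4.0.16 under R 4.3.3 (filterByExpr, minimum count 10, TMM factors, glmQLFit and glmQLFTest), fitted once over the 4 groups without covariates, with Benjamini-Hochberg adjustment over the 12863 genes tested. SE is the log2 fold change over the square root of F. Ratios used counts plus 0.5. A floor of 3 counts is 0.21 to 0.664 CPM per library before TMM scaling. DESeq2 1.42.0 and the settings of the closing section were alternatives.

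The members and lists were chosen with earlier results of these data known. Named genes were the 9, up to 2 called genes each way per list by size with a mean of at least 1 CPM, the 3 nearest to Tjp1, Ocln, Tjp3 and Cgn, and markers. Some genes that the rule names are not reported here.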

Additional observations from a re-analysis of the deposited data

Results flagged for a closer look

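The effect against crypts of Marveld3 differed between time points: its level was higher at day 5 than at day 3 by 0.58 on the log2 scale (edgeR adjusted p = 0.00311), with all 3 day 5 libraries above all 3 day 3 libraries. None of the other 8 genes passed this test for any pair of days.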

How the results depend on the processing

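Over the 7 comparisons, the number of the 9 genes called stayed within 1.5 times of its value under each alternative, with these exceptions. Members called for day 4 against day 3 went from 0 to 1 with only the groups compared, and members called for day 5 against day 3 from 1 to 2 with the DESeq2 Wald test and without day 5 replicate 3. Leaving out 1 library gave 6 to 7 members called for monolayers against crypts, 6 to 6, 5 to 6 and 5 to 6 for day 3, day 4 and day 5 against crypts, 0 to 0 for day 4 against day 3 and day 5 against day 4, and 1 to 2 for day 5 against day 3. The 6 ratios kept their direction and their call with an offset of 1 and without any 1 library, as in -1.87 to -1.75 for Tjp3 to Tjp1.

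Library totals in place of TMM moved the median of all genes from -0.03 to -0.21 for monolayers against crypts, and the share of calls that were higher from 48.3 to 37.7%. With them Ocln stood at -0.0188 over the 3 days, -0.0836 at day 3 and -0.0881 at day 4, Pard3 at -0.151, -0.168 at day 3 and -0.06 at day 5, and Cgn at -0.0018 for day 5 against day 4. With DESeq2 size factors Pard3 stood at -0.0013 over the days and -0.0302 at day 3, and Ocln at 0.0003 for day 4 against day 3. By the DESeq2 Wald test these were -0.0029, -0.031 and 0.0006. None of these sign changes concerned a called value. Without 1 library, Pard3 ranged from -0.0031 to 0.1004 over the days, -0.0419 to 0.0873 at day 3 and -0.0882 to 0.0152 at day 4. For day 4 against day 3 the ranges were -0.0942 to 0.0235 for Tjp3, -0.0366 to 0.0503 for Ocln, -0.116 to 0.0061 for F11r and -0.0668 to 0.0914 for Pard6b, and for day 5 against day 3 -0.0237 to 0.088 for Tjp3.

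Samples with the same replicate number did not deviate together: the correlation of deviations from group means was -0.0336 to 0.0585 over 18 pairs, and 4 of 12 libraries correlated best with their own number. With the replicate block 6 members were called for monolayers against crypts, 6 at each day against crypts, 0 and 0 between neighbouring days and 1 for day 5 against day 3. Over all genes it took the calls for monolayers against crypts from 8163 to 7996. For day 4 against day 3, calls over all genes went from 356 to 627 with the DESeq2 Wald test, 636 with no filter and 1144 with only the groups compared.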

Other observations

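Some related genes differed between day 5 and day 3, in lists chosen with earlier results of these data known. Of the 73 genes of the 5 lists, 15 were higher and 8 lower at day 5 than at day 3 (31.5%, against 20.4% of all genes), 4 higher and 2 lower at day 5 than at day 4 (8.22%, against 7.56%), and 1 higher and 2 lower at day 4 than at day 3 (4.11%, against 2.77%), the latter shares being near those of all genes. The following genes were chosen after their values were seen. Mylk, lower in monolayers than in crypts, was higher at day 5 than at day 3 by 1.13 on the log2 scale (edgeR adjusted p = 0.000189), and the apical constriction gene Shroom3 by 0.42 (0.000729). Myh14, a myosin heavy chain gene of epithelia, was higher by 0.43 (0.000543) and Cxadr, encoding the CAR adhesion protein, by 0.39 (0.00668). Dlg1 was lower by -0.57 (6.51e-05) and Amotl1, an angiomotin, by -0.54 (0.000598).

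Among scaffold relatives outside the rule for named genes, also chosen after their values were seen, Cgnl1 (paracingulin) rose between monolayers and crypts by 2.65 and Amotl1 by 3.41 (edgeR adjusted p = 3.33e-15 and 4.44e-15). Cgnl1 thus had a larger fold change than its paralogue Cgn, at 0.45. The difference between these 2 changes was not tested.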
